A study of Mus musculus with 30 samples.

Results

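Sorted pericytes and smooth muscle cells (SMC) of the small intestinal (SI) lamina propria were compared by bulk RNA-seq, 3 libraries against 3, which are 6 of the 30 libraries of a series on mouse gut stroma. All cells came from untreated C57BL6/Nrj mice aged 8 to 10 weeks, with the outer muscle layers stripped off before digestion. After dead, Lineage+, CD31+, BP3+, EpCAM+ and NCAM hi cells had been gated out, PDGFRα-ESAM-1+ cells were divided by podoplanin into PDPN- pericytes and PDPN+ SMC. The labels speak of individual animals and the paper of independent sorts and of gut subsets taken from shared mice, but neither says which libraries share an animal. The populations were therefore compared as independent groups, and 309 of the 390 calls remained when replicate numbers were fitted as blocks. The comparison asks which genes separate the mural cells of mucosal vessels from the muscle cells of the mucosa when both carry ESAM-1 and lack PDGFRα.

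Pericytes lie within the basement membrane of capillaries and small venules, where Notch and PDGF signals from the endothelium keep them in place and where they help to set vessel tone. SMC of the intestinal mucosa form thin strands that run up the villus core and a muscle layer beneath the crypts, and they shorten through actin and smooth muscle myosin. Both are contractile and use many of the same cytoskeletal genes.

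The libraries held 6185421, 9075187 and 7860140 estimated counts for pericytes 1 to 3, and 8866828, 9512574 and 13507159 for SMC 1 to 3. Genes entered the test when 3 or more of these 6 libraries held 6 or more counts, which 13767 did. Of these, 14, 6.5 and 2.4% had no count in pericytes 1, 2 and 3, against 0.7, 1.1 and 5.7% in SMC 1, 2 and 3. Pericytes 1 stood apart from the others, at −235.4 on the first principal component against −49.4 and −16.6 for pericytes 2 and 3, and 91.8, 92.4 and 117.2 for SMC 1, 2 and 3. SMC 3 stood apart too, since mitochondrial genes took 17.64% of its counts, against 4.59 and 5.95% in SMC 1 and 2 and 1.92, 3.14 and 4.18% in pericytes 1, 2 and 3. The share of mitochondrial genes was thus higher in every SMC library than in any pericyte library. Without these genes, an alternative chosen after seeing the data, 403 genes were called, with all 390 of the main fit among them. Of the 13 mitochondrial genes tested, edgeR and DESeq2 called none, and 8 had an unadjusted p below 0.05 in edgeR. Across genes, which are not independent replicates, Pearson correlations of log2 levels were 0.624, 0.674 and 0.725 between pericyte libraries, 0.894, 0.761 and 0.761 between SMC libraries, and 0.531 to 0.697 across the populations.

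In these sorted cells 390 genes differed (2.83% of those tested), at a Benjamini-Hochberg adjusted p below 0.05 in edgeR and an absolute log2 fold change above 1.5. SMC had the higher level for 196 of them (1.42%) and pericytes for 194 (1.41%). The levels of the populations did not overlap in any of the 390 called genes, nor in 2936 of all 13767 tested. A lack of overlap therefore adds nothing to a call, and many genes without a call show it. Fold changes are coded as SMC minus pericytes, so that negative values mean higher levels in pericytes. Levels are library-scaled counts (CPM, with TMM factors) unless given per transcript length (TPM), and means are given ± SD with n = 3. Called genes had a median absolute log2 fold change of 5.83, and the smallest was 1.78, against a median of 0.95 over all genes tested. This gap follows from the selection, since with 3 libraries a population only large differences could be called. Without pericytes 1 and SMC 3 together, 356 genes were called, 161 higher in SMC and 195 in pericytes, and 260 of the 390 were among them. Leaving out 1 library at a time gave 362, 241 and 238 calls without pericytes 1, 2 and 3, and 183, 190 and 213 without SMC 1, 2 and 3. Counts of called genes in a list are from edgeR, with the DESeq2 counts in parentheses. Over all 13767 genes tested, DESeq2 called 1251 (598 higher in SMC, 653 in pericytes). Counts at an unadjusted p below 0.05 are given without the count over all genes, so they have no background here. Genes near 0 in 1 population drop out of the filter when a library of the other is left out. For these the genes of the main test were kept, an alternative chosen after seeing the data. In bulk, fewer cells of a type and less RNA per cell cannot be told apart.

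The labels were checked against 4 marker genes, of which *Rgs5* and *Esam* stand for pericytes and *Myh11* and *Actg2* for SMC. *Rgs5* (ENSMUSG00000026678, chromosome 1, bases 169655501 to 169695813), a brake on G protein signalling that marks pericytes in many organs, stood at 39028, 21872 and 34335 CPM in pericytes 1, 2 and 3 and at 4127, 3822 and 7208 CPM in SMC 1, 2 and 3. Every pericyte library was above every SMC library (log2 fold change −2.63, SE 0.41, adjusted p = 0.00804), yet SMC still held a high level. By length, *Rgs5* ranked 5 among all genes in pericytes (10025 ± 3881 TPM) and 42 in SMC (1656 ± 343 TPM). *Myh11* (ENSMUSG00000018830, chromosome 16, bases 14194535 to 14291372), the smooth muscle myosin heavy chain, was present in both populations, at 2158, 1171 and 1423 CPM in pericytes and 12025, 9294 and 13178 CPM in SMC. The SMC libraries were all higher, with no overlap (log2 fold change 2.89, SE 0.40, adjusted p = 0.00476). *Actg2* (ENSMUSG00000059430, chromosome 6, bases 83512905 to 83536265), the enteric smooth muscle actin, separated the populations further, at 51.7, 11.2 and 40.6 CPM in pericytes and 1998, 1857 and 1280.3 CPM in SMC. Again the SMC libraries were all higher (log2 fold change 5.67, SE 0.68, adjusted p = 0.00237). *Myh11* and *Actg2* kept their calls in all 6 fits that left out 1 library. With 1 library left out, the call was lost for *Rgs5* in 2 of 6 such fits (adjusted p up to 0.0635, without SMC 1).

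*Esam* (ENSMUSG00000001946, chromosome 9, bases 37528078 to 37538319), which encodes the adhesion molecule on which both populations were gated, had 22.3, 203 and 104 CPM in pericytes and 117, 91.9 and 149 CPM in SMC. Here the populations overlapped and no difference was called (log2 fold change 0.16, SE 0.75, adjusted p = 0.968), with pericytes 1 the lowest and pericytes 2 the highest of the 6 libraries. Without pericytes 1 the sign of the *Esam* estimate turned (log2 fold change −0.34), and it was −0.04 without SMC 3. *Pdpn*, which encodes the podoplanin that divided the gates, was low throughout, with 2, 1 and 0 counts in pericytes 1, 2 and 3 and 124, 58 and 105 in SMC (13.1, 5.59 and 11.5 CPM). All SMC libraries exceeded all pericyte libraries for it, but the difference was not called (adjusted p = 0.113). *Pdgfra*, whose protein was gated out, read 11.2, 10.2 and 10.8 CPM in pericytes and 16.4, 23.6 and 40.7 CPM in SMC (log2 fold change 1.35, adjusted p = 0.602). *Epcam* had no count in any of the 6 libraries. *Ncam1*, whose protein served to gate out NCAM hi cells, was the 1 sorting marker of 12 tested that was called by edgeR (DESeq2 3 in SMC and 0 in pericytes), at 10.9, 27.1 and 25.6 CPM in pericytes and 1017, 1202 and 3803 CPM in SMC (log2 fold change 6.58, SE 0.74, adjusted p = 0.00169). The SMC libraries were all higher, and SMC 3 was the highest. *Ncam1* kept the call in all 6 fits that left out 1 library. The fold change moved by over 1.5 times for *Ncam1* (log2 fold change 5.75 without SMC 3).

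**Figure D1:**
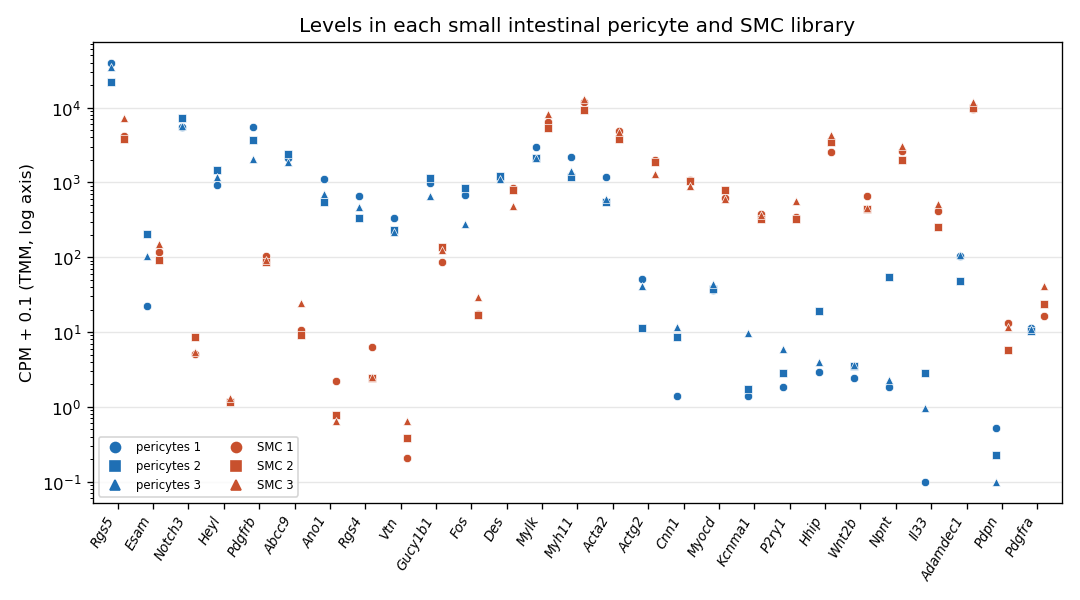
Level of 27 genes in each library (CPM + 0.1, log axis), pericytes in blue and SMC in orange, with 1 symbol shape per replicate. *Notch3* and *Heyl* were at single-digit CPM in SMC, where *Rgs5* stood at 3822 CPM or more.

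Of the 22 pericyte markers, all tested, 17 were called higher in pericytes (DESeq2 0 in SMC and 19 in pericytes), with a median log2 fold change of −6.35 against 0.01 over all genes tested. Like the other lists, this one was chosen with earlier results of these data known. Its counts are therefore a description and no separate check of the labels. The summed level of the pericyte markers was 62611, 43071 and 51683 CPM in pericytes 1, 2 and 3 and 5294, 4738 and 8709 CPM in SMC 1, 2 and 3, most of it from *Rgs5* in both. *Notch3* (ENSMUSG00000038146, chromosome 17, bases 32120820 to 32166852), the Notch receptor of mural cells, had 5486, 7293 and 5743 CPM in pericytes and 4.96, 8.57 and 5.28 CPM in SMC. It was high in all 3 pericyte libraries and at single-digit CPM in all SMC libraries (log2 fold change −9.91, SE 0.55, adjusted p = 8.11e-05). *Heyl*, a transcriptional repressor switched on by Notch, had 934, 1451 and 1193 CPM in pericytes and 1.06, 1.06 and 1.21 CPM in SMC (log2 fold change −10.02, SE 0.59, adjusted p = 8.11e-05), with the same split. *Pdgfrb*, the receptor through which endothelial PDGF-B recruits mural cells, had 5471, 3643 and 2052 CPM in pericytes and 103, 85.2 and 91.2 CPM in SMC (log2 fold change −5.29, SE 0.52, adjusted p = 0.000985). Among transcription factors of the list, *Ebf1* had 1292 ± 283 CPM in pericytes and 21.8 ± 24.8 CPM in SMC (log2 fold change −5.88, adjusted p = 0.00684), while *Foxs1* had 65.8 ± 39 CPM in pericytes against 0, 0 and 2 counts in SMC 1, 2 and 3 (adjusted p = 0.00905). *Notch3*, *Heyl*, *Pdgfrb* and *Ebf1* kept their calls in all 6 fits that left out 1 library. With the genes of the main test kept and 1 library left out, calls were lost for *Foxs1* in 1 of 6 (adjusted p up to 0.0528, without SMC 2). Leaving out single libraries moved the fold change by over 1.5 times for *Ebf1* (log2 fold change −7.37 without SMC 3).

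Other pericyte markers were close to absent from SMC. *Vtn*, which encodes the matrix protein vitronectin, had 334, 229 and 216 CPM in pericytes and 1, 3 and 5 counts in SMC 1, 2 and 3 (adjusted p = 0.000605). *Gja4*, the gap junction protein connexin 37, had 248, 311 and 245 CPM against 1, 0 and 4 counts (adjusted p = 0.00119), and *Steap4*, a metalloreductase, 374, 294 and 133 CPM against 0, 2 and 3 counts (adjusted p = 0.00119). For all of them each pericyte library was above each SMC library. *Rgs4*, a relative of *Rgs5*, had 649, 334 and 466 CPM in pericytes and 6.23, 2.31 and 2.42 CPM in SMC (log2 fold change −7.00, adjusted p = 0.00119), so that it was far lower in SMC than *Rgs5* was. *Anpep*, the surface peptidase CD13, had 366 ± 199 CPM in pericytes and 34.8 ± 24.3 CPM in SMC (log2 fold change −3.37, adjusted p = 0.0445). The 5 markers not called were *Cspg4*, *Mcam*, *Cd248*, *Tbx18* and *Higd1b*. *Cspg4*, which encodes the proteoglycan NG2, was at 1266, 223 and 587 CPM in pericytes and 198, 138 and 157 CPM in SMC (log2 fold change −2.05, adjusted p = 0.138), without overlap, whereas the *Cd248* levels overlapped (266, 137 and 259 CPM against 263, 104 and 232 CPM). *Rgs4* kept the call in all 6 fits that left out 1 library. The call was lost with 1 library left out for *Anpep* in 5 of 6 such fits (adjusted p up to 0.174, without SMC 2). Without each library in turn, and with the genes of the main test kept, *Vtn*, *Gja4* and *Steap4* stayed called. A fold change that moved by over 1.5 times was seen for *Rgs4* (log2 fold change −7.64 without SMC 1) and *Anpep* (log2 fold change −4.02 without SMC 3).

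Notch genes gave 6 calls of 14 tested, all higher in pericytes, and 8 were not called (list median −2.11; DESeq2 0 in SMC and 7 in pericytes). The ligand *Dll4* had 564, 91.5 and 25.1 CPM in pericytes and 1.06, 0.0963 and 0 CPM in SMC (adjusted p = 0.0209), and was uneven within pericytes, with pericytes 1 far above the other 2. *Notch1* had 584, 423 and 561 CPM against 19.1, 31 and 2.64 CPM (log2 fold change −4.85, adjusted p = 0.0139), with all pericyte libraries higher. Besides *Heyl*, the target genes *Hey2* (81.3, 78 and 112 CPM against 0.95, 1.54 and 0 CPM, adjusted p = 0.0252) and *Nrarp* (109, 27.4 and 106 CPM against 0.317, 0 and 0.11 CPM, adjusted p = 0.00735) were called. *Jag1*, a ligand, did not overlap between the populations (625, 351 and 401 CPM against 66.1, 148 and 125 CPM) but was not called (adjusted p = 0.0735). The DNA-binding partner *Rbpj* (log2 fold change −0.18, adjusted p = 0.955) and the coactivators *Maml1* (log2 fold change −0.91, adjusted p = 0.552) and *Maml2* (log2 fold change −0.09, adjusted p = 0.976) overlapped, as did *Notch2* (log2 fold change −0.74, adjusted p = 0.735). Leaving out 1 library ended the call for *Dll4* in 2 of 6 such fits (adjusted p up to 0.0912, without SMC 3), *Notch1* in 2 of 6 such fits (adjusted p up to 0.0632, without SMC 1) and *Hey2* in 4 of 6 such fits (adjusted p up to 0.115, without SMC 1). *Nrarp* stayed called in all 6 fits without 1 library that kept the genes of the main test. Single libraries moved the fold change by over 1.5 times for *Dll4* (log2 fold change −11.74 without SMC 1), *Notch1* (log2 fold change −5.51 without SMC 2) and *Hey2* (log2 fold change −7.44 without SMC 2).

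In the PDGF pathway, *Pdgfrb* and *Pdgfc* were called, in opposite directions, of 6 genes tested (DESeq2 1 in SMC and 1 in pericytes). *Pdgfc*, a ligand of PDGFRα, had 0.215, 2.4 and 1.97 CPM in pericytes and 188, 178 and 83 CPM in SMC (log2 fold change 6.61, adjusted p = 0.00717), with each SMC library higher. Of 19 vessel signals, *Tek* and *Ednrb* were called (DESeq2 1 in SMC and 5 in pericytes). *Tek*, the angiopoietin receptor TIE2, had 194, 64.1 and 73.4 CPM in pericytes and 0.95, 0.289 and 0.22 CPM in SMC (log2 fold change −7.75, adjusted p = 0.00509). Of the 7 blood endothelial markers tested (list median −2.22), *Ptprb* (2.36, 123 and 19.1 CPM against 0.633, 0.482 and 0.77 CPM), *Tie1* (19.1, 40.1 and 9.1 CPM against 2.64, 1.83 and 1.65 CPM), *Emcn* and *Vwf* were also higher in each pericyte library, without an edgeR call, and *Pecam1* (75.5, 79.8 and 61 CPM against 38.9, 40.1 and 165 CPM), *Flt1* and *Kdr* overlapped. Over all genes tested, 2936 of 13767 did not overlap, in either direction. The endothelin receptors differed, since *Ednrb* was called higher in SMC (27.9, 16.2 and 43.5 CPM against 192, 171 and 214 CPM, log2 fold change 2.75, adjusted p = 0.0445), while *Ednra* read 2232, 971 and 1487 CPM in pericytes and 200.1, 154 and 556 CPM in SMC without a call (log2 fold change −2.35, adjusted p = 0.0691). The angiopoietins *Angpt1* (log2 fold change −1.05, adjusted p = 0.58) and *Angpt2* (log2 fold change −1.64, adjusted p = 0.214) were not called either, although neither overlapped between the populations. *Pdgfc* and *Tek* kept their calls in all 6 fits that left out 1 library. In fits without 1 library, the call was lost for *Ednrb* in 6 of 6 such fits (adjusted p up to 0.186, without SMC 1). The fold change moved by over 1.5 times for *Tek* (log2 fold change −8.66 without SMC 1).

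Of 27 ion channel and calcium handling genes, 4 were called higher in pericytes and 3 in SMC, with a median log2 fold change of 0.06 (DESeq2 6 in SMC and 6 in pericytes). *Abcc9* and *Kcnj8* encode the sulfonylurea receptor and the pore of the ATP-sensitive potassium channel of mural cells. Both are also on the list of pericyte markers. *Abcc9* had 2138, 2401 and 1865 CPM in pericytes and 10.4, 9.05 and 24.1 CPM in SMC (log2 fold change −7.17, SE 0.60, adjusted p = 0.000487). *Kcnj8* had 441, 80.4 and 303 CPM and 9.39, 8.19 and 0.88 CPM (log2 fold change −5.44, adjusted p = 0.0229), and for both genes all pericyte libraries were higher. *Ano1*, a calcium-activated chloride channel that also marks interstitial cells of Cajal, had 1095, 547 and 694 CPM in pericytes and 2.11, 0.674 and 0.55 CPM in SMC (log2 fold change −9.39, SE 0.83, adjusted p = 0.000511). Those cells' defining marker *Kit* had 2, 0 and 68 counts in pericytes 1, 2 and 3 and was not tested. *Abcc9* and *Ano1* kept their calls in all 6 fits that left out 1 library. Calls were lost without 1 library for *Kcnj8* in 3 of 6 such fits (adjusted p up to 0.0836, without SMC 2). Leaving out single libraries moved the fold change by over 1.5 times for *Ano1* (log2 fold change −10.25 without SMC 1).

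The channel genes higher in SMC carry potassium. *Kcnma1*, the pore of the large-conductance calcium-activated potassium channel, had 1.29, 1.64 and 9.72 CPM in pericytes and 376, 324 and 363 CPM in SMC (log2 fold change 6.41, SE 0.92, adjusted p = 0.00548), and the SMC libraries were all far higher. Its smooth muscle β subunit *Kcnmb1* had 41, 26.5 and 53.3 CPM and 274, 184 and 390.1 CPM (log2 fold change 2.84, adjusted p = 0.0289), so that it was present in pericytes where the pore gene was scarce. *Kcnk3*, a background potassium channel, had 11 ± 9.95 CPM in pericytes and 145 ± 36.3 CPM in SMC (log2 fold change 3.76, adjusted p = 0.0467). Other genes of calcium entry and release were shared or uncalled. *Cacna1c*, the pore of the L-type calcium channel, read 1181, 958 and 885 CPM in pericytes and 439, 392 and 400 CPM in SMC (log2 fold change −1.27, adjusted p = 0.141). *Itpr1* (log2 fold change 0.57, adjusted p = 0.746) and *Atp2a2* (log2 fold change 0.77, adjusted p = 0.59), which release and take back stored calcium, overlapped between the populations. *Kcnma1* kept the call in all 6 fits that left out 1 library. With 1 library left out, the call was lost for *Kcnmb1* in 5 of 6 such fits (adjusted p up to 0.123, without SMC 1) and *Kcnk3* in 5 of 6 such fits (adjusted p up to 0.185, without SMC 1). A fold change that moved by over 1.5 times was seen for *Kcnma1* (log2 fold change 7.92 without pericytes 3) and *Kcnk3* (log2 fold change 4.80 without pericytes 1).

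Soluble guanylyl cyclase, the nitric oxide receptor, was on the pericyte side in all 3 subunits listed. *Gucy1b1* had 967, 1146 and 663 CPM in pericytes and 85.5, 136 and 125 CPM in SMC (log2 fold change −2.98, adjusted p = 0.00745). The α subunit genes *Gucy1a1* (1384 ± 156 against 269 ± 107 CPM, log2 fold change −2.34, adjusted p = 0.0209) and *Gucy1a2* (371 ± 16.4 against 22.9 ± 9.74 CPM, log2 fold change −3.99, adjusted p = 0.00548) were called as well. *Pde3a*, a phosphodiesterase inhibited by cyclic GMP, had 1801, 1282 and 1119.9 CPM in pericytes and 132, 164 and 262 CPM in SMC (log2 fold change −2.89, adjusted p = 0.00899). These were the 4 of 18 genes of nitric oxide and cyclic nucleotide signalling that were called, with a list median of −0.53 (DESeq2 0 in SMC and 6 in pericytes). Among them, *Gucy1b1* and *Gucy1a1* are also on the list of pericyte markers. Downstream, the kinase *Prkg1* (log2 fold change 0.55, adjusted p = 0.801) and its substrate *Mrvi1* (log2 fold change 0.22, adjusted p = 0.897) overlapped, and *Pde5a*, which breaks down cyclic GMP, read 491, 429.5 and 352 CPM in pericytes and 623, 613 and 920.4 CPM in SMC without a call (log2 fold change 0.79, adjusted p = 0.457). *Gucy1a2* kept the call in all 6 fits that left out 1 library. The call was lost with 1 library left out for *Gucy1b1* in 1 of 6 such fits (adjusted p up to 0.0586, without SMC 1), *Gucy1a1* in 4 of 6 such fits (adjusted p up to 0.14, without SMC 2) and *Pde3a* in 2 of 6 such fits (adjusted p up to 0.0656, without SMC 2).

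Receptors for transmitters and hormones were divided, with 4 of 38 called higher in pericytes and 4 in SMC (list median 0.53; DESeq2 11 in SMC and 9 in pericytes). *Agtr1a*, the angiotensin II receptor, had 485, 636 and 276 CPM in pericytes and 19.9, 9.82 and 16.6 CPM in SMC (log2 fold change −4.88, SE 0.61, adjusted p = 0.00292), with every pericyte library higher. *Adra2a*, an inhibitory adrenoceptor, had 412, 249.8 and 214 CPM in pericytes and 1, 1 and 3 counts in SMC 1, 2 and 3 (adjusted p = 0.000487). *Tacr3*, the neurokinin B receptor, and *Vipr1*, a receptor for vasoactive intestinal peptide, had no count in any SMC library. In pericytes *Tacr3* had 9.44, 189 and 21.9 CPM (adjusted p = 0.0227) and *Vipr1* 11.8, 30.6 and 38.4 CPM (adjusted p = 0.0215). Pericytes 2 carried most of the *Tacr3* signal. *Agtr1a* kept the call in all 6 fits that left out 1 library. In the 6 fits that kept the genes of the main test, *Adra2a* stayed called. In the 6 fits without 1 library that kept the genes of the main test, calls ended for *Tacr3* in 4 of 6 (adjusted p up to 0.0816, without SMC 3) and *Vipr1* in 5 of 6 (adjusted p up to 0.0857, without SMC 2).

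On the SMC side, *P2ry1*, an ADP receptor that takes part in the relaxation of gut muscle by purines, had 1.72, 2.78 and 5.78 CPM in pericytes and 339.8, 326 and 569.8 CPM in SMC (log2 fold change 6.92, SE 0.72, adjusted p = 0.00119). *P2ry14*, a receptor for UDP-glucose, had 88, 66.9 and 71.9 CPM and 543, 662 and 1186 CPM (log2 fold change 3.42, SE 0.50, adjusted p = 0.00554). Both were higher in every SMC library. *Bdkrb2*, the bradykinin receptor, had 0, 0 and 1 counts in pericytes and 48.1, 92.8 and 1.43 CPM in SMC (adjusted p = 0.0307), and was low in SMC 3. *Vipr2*, the other receptor for vasoactive intestinal peptide, read 0.215, 1.01 and 10.8 CPM in pericytes and 43.5, 31.7 and 103 CPM in SMC without a call (log2 fold change 3.91, adjusted p = 0.205), so the receptor pair leaned in opposite directions and 1 of the 2 was called. *P2ry1* and *P2ry14* kept their calls in all 6 fits that left out 1 library. Keeping the genes of the main test and leaving out 1 library ended calls for *Bdkrb2* in 5 of 6 (adjusted p up to 0.15, without SMC 2). Single libraries moved the fold change by over 1.5 times for *P2ry1* (log2 fold change 7.52 without pericytes 3).

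Among 28 smooth muscle contractile genes, all tested, 11 were called higher in SMC (DESeq2 12 in SMC and 0 in pericytes), with a median log2 fold change of 1.94 against 0.01 over all genes. The summed level was 21622, 15419 and 16674 CPM in pericytes 1, 2 and 3 and 56094, 44731 and 61158 CPM in SMC 1, 2 and 3. Pericytes thus held transcripts of this list in quantity, but the member with the most counts was *Cald1* in pericytes and *Myh11* in SMC. *Acta2*, the vascular smooth muscle actin, had 1179.6, 554 and 595 CPM in pericytes and 4844, 3846 and 4648 CPM in SMC (log2 fold change 2.55, SE 0.44, adjusted p = 0.0126). *Cnn1*, the actin-binding calponin of differentiated smooth muscle, had 1.29, 8.58 and 11.4 CPM and 1087, 1047 and 906 CPM (log2 fold change 7.18, SE 0.83, adjusted p = 0.00186). For both, all SMC libraries were higher, but in pericytes *Cnn1* was at 11.4 CPM or less and *Acta2* at 554 CPM or more. Per length, *Acta2* was above *Actg2* in both populations: in pericytes *Acta2* stood at 586 ± 262 TPM and *Actg2* at 38.8 ± 24.7 TPM, in SMC *Acta2* at 3965 ± 1794 TPM and *Actg2* at 2593 ± 1232 TPM. *Synm*, the intermediate filament protein synemin, had 0.429, 0.631 and 0.738 CPM in pericytes and 103, 138 and 31.4 CPM in SMC (log2 fold change 7.23, SE 1.03, adjusted p = 0.00535). *Cnn1* and *Synm* kept their calls in all 6 fits that left out 1 library. Leaving out 1 library ended the call for *Acta2* in 3 of 6 such fits (adjusted p up to 0.082, without pericytes 3).

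Further contractile genes were called. The LIM proteins *Csrp1* (237 ± 80.5 against 1799 ± 713 CPM, log2 fold change 2.97, adjusted p = 0.0107) and *Pdlim3* (163 ± 84.9 against 1189 ± 57.1 CPM, log2 fold change 2.90, adjusted p = 0.0126) bind the actin cytoskeleton. *Tpm2*, a tropomyosin, had 607, 352 and 455 CPM in pericytes and 2473, 1459.5 and 2884 CPM in SMC (log2 fold change 2.3, adjusted p = 0.0234). *Flna*, the actin crosslinker filamin A, had 1665, 831 and 913 CPM and 5293, 4008 and 4844 CPM (log2 fold change 2.08, adjusted p = 0.0289). *Tagln*, the calponin relative transgelin, had 81.1, 157 and 103 CPM and 594, 581 and 343 CPM (log2 fold change 2.19, adjusted p = 0.0476), and *Lmod1*, which nucleates actin filaments, 170.2, 187 and 205 CPM and 725, 658 and 585 CPM (log2 fold change 1.84, adjusted p = 0.0455). All 6 were higher in each SMC library than in each pericyte library. In fits without 1 library, the call was lost for *Csrp1* in 2 of 6 such fits (adjusted p up to 0.0568, without pericytes 2), *Pdlim3* in 2 of 6 such fits (adjusted p up to 0.0712, without pericytes 3), *Tpm2* in 4 of 6 such fits (adjusted p up to 0.106, without SMC 1), *Flna* in 4 of 6 such fits (adjusted p up to 0.131, without SMC 1), *Tagln* in 6 of 6 such fits (adjusted p up to 0.228, without SMC 2) and *Lmod1* in 6 of 6 such fits (adjusted p up to 0.225, without SMC 1).

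Not called were 17 contractile genes, some of them abundant in both populations. *Des*, the muscle intermediate filament desmin, had 1109, 1202 and 1111 CPM in pericytes and 836, 780.4 and 484 CPM in SMC (log2 fold change −0.67, adjusted p = 0.536), and its pericyte libraries were all above the SMC libraries. *Cald1*, the actin-binding caldesmon, had 4535, 2578 and 3614 CPM and 3275, 2587 and 8776 CPM (log2 fold change 0.47, adjusted p = 0.774), and *Mylk*, the kinase that switches on smooth muscle myosin, 3005, 2134 and 2115 CPM and 6335, 5287 and 8232 CPM (log2 fold change 1.48, adjusted p = 0.0697). *Cald1* overlapped between the populations and *Mylk* did not. The adhesion protein *Vcl* (log2 fold change 0.09, adjusted p = 0.966), dystrophin *Dmd* (log2 fold change 0.41, adjusted p = 0.775) and *Synpo2* (log2 fold change −0.06, adjusted p = 0.974) also overlapped. Of the regulators of contractile genes, 2 of 13 tested were called (list median 0.04; DESeq2 3 in SMC and 2 in pericytes). *Myocd*, the coactivator that drives the smooth muscle programme with serum response factor, had 36.7, 37.6 and 44.3 CPM in pericytes and 615, 779 and 605 CPM in SMC (log2 fold change 4.11, SE 0.47, adjusted p = 0.00175). *Fhl1*, a LIM protein, had 951, 554 and 319.8 CPM and 2416, 3139.8 and 3411 CPM (log2 fold change 2.32, adjusted p = 0.0325), whereas *Srf* itself read 98.3, 27.4 and 38.1 CPM and 223, 132 and 235 CPM without a call (log2 fold change 1.88, adjusted p = 0.208). *Myocd* kept the call in all 6 fits that left out 1 library. Calls were lost without 1 library for *Fhl1* in 5 of 6 such fits (adjusted p up to 0.127, without pericytes 2).

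Transcripts of contractile genes were compared by their share of the gene's summed TPM, with no test. Of 21 genes with several transcripts, 7 had a transcript of at least 10% in some library whose shares did not overlap: *Actg2*, *Cald1*, *Dmd*, *Flna*, *Ppp1r14a*, *Synm* and *Synpo2*. The same count was not made over all genes, and a gene with many transcripts had more ways to be counted. The number is therefore no result about this list. In *Ppp1r14a*, which encodes an inhibitor of myosin phosphatase and had few counts in pericytes (25, 6 and 62), Ppp1r14a-201 held 3.0, 0 and 1.6% in pericytes and 24.4, 38.5 and 92.7% in SMC. For *Cald1*, transcript Cald1-210 held 22.2, 11.4 and 23.7% in pericytes 1, 2 and 3 and 48.3, 45.1 and 50.2% in SMC 1, 2 and 3. The SMC shares were all higher although the *Cald1* gene level overlapped. For *Dmd*, the 14910-base transcript Dmd-203 held 0.8, 2.7 and 3.9% in pericytes and 15.4, 14.1 and 8.8% in SMC, and the 4438-base transcript Dmd-201 held 18.1, 15.6 and 19.7% and 4.9, 4.8 and 7.2%. Neither overlapped, and they differed in opposite directions. For *Flna*, transcript Flna-203 held 9.3, 31.9 and 10.8% in pericytes and 38.1, 46 and 37.2% in SMC. *Acta2*, *Myh11*, *Tagln*, *Cnn1* and *Lmod1* had 1 transcript each among those matched to genes, so that no share could be compared.

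The CArG box, the element bound by serum response factor, was sought on both strands in RefSeq promoters of 300 bases (GRCm38.p6) as its exact form of 6 A or T between paired C and paired G. Of 32851 promoters in the table, 535 held it (1.63%), on 488 of 27025 genes (1.81%). Of the 28 contractile genes, 24 were in the table with 30 promoters, and 4 promoters held the box (13.3%), those of *Myl9*, *Vcl*, *Dmd* and *Myl6*. Of the 22 pericyte markers, 15 were in the table with 17 promoters and none held it. None of the 4 genes with a box was called between the populations: the myosin light chain *Myl9* had 493 ± 413 CPM in pericytes and 1322 ± 344 CPM in SMC (log2 fold change 1.45, adjusted p = 0.329). *Acta2*, which was called, had no exact match in its window, which says only that these letters are absent there. Of *Myl6*, at least 50% of the 31-base words also occur in other genes, so its level is uncertain and its promoter is not shown. The others are printed 5′ to 3′ to show where the box, in capitals, lies in contractile genes that both populations express, with that of *Acta2* beside them.
*Myl9* (chr2:156775214-156775513, strand +): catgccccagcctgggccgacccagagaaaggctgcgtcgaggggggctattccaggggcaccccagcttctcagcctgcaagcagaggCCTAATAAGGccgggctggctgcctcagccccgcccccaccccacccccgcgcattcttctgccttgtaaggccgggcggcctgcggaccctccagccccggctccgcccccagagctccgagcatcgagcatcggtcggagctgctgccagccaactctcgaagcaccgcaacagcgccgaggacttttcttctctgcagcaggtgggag
*Vcl* (chr14:20929148-20929447, strand +): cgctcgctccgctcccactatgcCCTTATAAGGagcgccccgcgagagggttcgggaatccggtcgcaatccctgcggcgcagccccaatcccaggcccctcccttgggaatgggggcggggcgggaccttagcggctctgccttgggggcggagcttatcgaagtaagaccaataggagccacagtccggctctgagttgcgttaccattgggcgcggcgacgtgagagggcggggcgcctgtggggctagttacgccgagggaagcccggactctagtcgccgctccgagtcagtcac
*Dmd* (chrX:82948620-82948919, strand +): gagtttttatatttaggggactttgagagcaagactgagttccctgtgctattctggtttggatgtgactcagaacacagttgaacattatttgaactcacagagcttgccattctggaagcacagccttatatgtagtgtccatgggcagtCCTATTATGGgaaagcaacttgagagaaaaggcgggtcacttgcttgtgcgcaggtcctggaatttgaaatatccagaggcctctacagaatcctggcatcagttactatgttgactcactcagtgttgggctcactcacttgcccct
*Acta2* (chr19:34255324-34255623, strand −): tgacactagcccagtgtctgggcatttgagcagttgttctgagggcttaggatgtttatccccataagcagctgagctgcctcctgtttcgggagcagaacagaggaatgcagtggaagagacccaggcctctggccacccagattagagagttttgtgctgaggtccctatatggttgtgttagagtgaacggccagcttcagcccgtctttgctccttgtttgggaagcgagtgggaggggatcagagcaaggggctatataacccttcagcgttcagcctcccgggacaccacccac

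Hedgehog pathway genes higher in SMC were *Hhip* and *Ptch1*, 2 of 9 tested (list median 1.01; DESeq2 3 in SMC and 0 in pericytes), which are both targets of the pathway and restrain it. *Hhip* had 2.79, 18.9 and 3.94 CPM in pericytes and 2518, 3507 and 4339 CPM in SMC (log2 fold change 8.68, SE 0.91, adjusted p = 0.00119). *Ptch1*, the hedgehog receptor, had 173, 499.8 and 356 CPM and 2237, 2778 and 2440.3 CPM (log2 fold change 2.89, SE 0.48, adjusted p = 0.0107). Both were higher in every SMC library, and *Ptch1* was also present in each pericyte library. The transcription factor *Gli1*, another target, read 255, 102 and 30.5 CPM in pericytes and 239.8, 267 and 134 CPM in SMC and overlapped (log2 fold change 0.75, adjusted p = 0.742), as did the signal transducer *Smo* (log2 fold change 0.99, adjusted p = 0.616). In fibroblasts (FB) of the SI, *Hhip* stood far below each SMC library, at 60.4 ± 22.2 CPM in SI CD34+ FB, 14.4 ± 4.2 CPM in SI Fgfr2+ FB and 2.84 ± 1.24 CPM in SI PDGFRα hi FB. *Hhip* kept the call in all 6 fits that left out 1 library. With 1 library left out, the call was lost for *Ptch1* in 1 of 6 such fits (adjusted p up to 0.0638, without pericytes 3). The fold change moved by over 1.5 times for *Hhip* (log2 fold change 10.01 without pericytes 2).

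Among 23 Wnt genes tested, 4 were called, all higher in SMC (list median 0.81; DESeq2 7 in SMC and 2 in pericytes). The ligand *Wnt2b*, a growth signal for intestinal epithelium, had 2.36, 3.41 and 3.57 CPM in pericytes and 665, 443 and 451 CPM in SMC (log2 fold change 7.41, SE 0.60, adjusted p = 0.000453). *Sfrp1*, a secreted Wnt antagonist, had 26.2, 111 and 20.2 CPM and 1679.7, 1533 and 4667 CPM (log2 fold change 5.67, SE 0.85, adjusted p = 0.00679), and in both cases each SMC library was far above each pericyte library. The receptors *Fzd1* (15.5, 24.4 and 50.2 CPM against 346, 254 and 519 CPM, log2 fold change 3.67, adjusted p = 0.0126) and *Fzd2* (0, 1 and 8 counts against 75.9, 97.3 and 28.6 CPM, adjusted p = 0.0209) were called too. *Fzd4*, the receptor through which norrin acts on vessels, read 971, 289.6 and 269 CPM in pericytes and 80.7, 72.4 and 83.1 CPM in SMC without a call (log2 fold change −2.67, adjusted p = 0.0518). *Dkk3* was uneven among pericyte libraries (12.9, 117 and 272 CPM against 1075, 967 and 2961 CPM) and was not called (log2 fold change 3.67, adjusted p = 0.0766). *Wnt2b* and *Sfrp1* kept their calls in all 6 fits that left out 1 library. The call was lost with 1 library left out for *Fzd1* in 2 of 6 such fits (adjusted p up to 0.0623, without SMC 3) and *Fzd2* in 3 of 6 such fits (adjusted p up to 0.103, without SMC 2). Leaving out single libraries moved the fold change by over 1.5 times for *Sfrp1* (log2 fold change 6.84 without pericytes 2).

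BMP and TGF-β genes gave 3 calls in SMC and 1 in pericytes of 35 tested (list median 0.31; DESeq2 7 in SMC and 5 in pericytes). The ligand *Bmp4* had 6.65, 56.6 and 21 CPM in pericytes and 591, 586 and 757 CPM in SMC (log2 fold change 4.55, SE 0.77, adjusted p = 0.0119), and *Bmp5* 42.5, 11.4 and 36.9 CPM and 341, 389 and 239 CPM (log2 fold change 3.45, adjusted p = 0.0209). *Ltbp4*, which stores latent TGF-β in elastic fibres, had 223, 284 and 335 CPM and 2841, 2497 and 1667 CPM (log2 fold change 3.1, SE 0.43, adjusted p = 0.0047). For these 3 genes every SMC library was higher. *Id1*, a target of BMP signals, went the other way, with 33, 37.9 and 14.3 CPM in pericytes and 0, 1 and 0 counts in SMC (adjusted p = 0.0158). Its relative *Id3* read 41.8, 359.7 and 113 CPM in pericytes and 20.4, 20.9 and 15.6 CPM in SMC (log2 fold change −3.14, adjusted p = 0.0874), while *Id2* (log2 fold change −0.17, adjusted p = 0.974) overlapped and *Id4* (log2 fold change 2.08, adjusted p = 0.572) was not called either. The BMP receptors *Bmpr1a* (log2 fold change 0.23, adjusted p = 0.888) and *Bmpr2* (log2 fold change 0.31, adjusted p = 0.851) overlapped. *Ltbp4* kept the call in all 6 fits that left out 1 library. Leaving out 1 library ended the call for *Bmp4* in 2 of 6 such fits (adjusted p up to 0.0698, without pericytes 3) and *Bmp5* in 3 of 6 such fits (adjusted p up to 0.1, without SMC 2). With the genes of the main test kept and 1 library left out, calls were lost for *Id1* in 3 of 6 (adjusted p up to 0.0932, without SMC 1). A fold change that moved by over 1.5 times was seen for *Bmp4* (log2 fold change 5.57 without pericytes 2).

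Basement membrane genes were called in both directions, 2 each of 23 tested, around a list median of −1.11 (DESeq2 2 in SMC and 7 in pericytes). *Col4a2*, a chain of the main type IV collagen, had 5122, 3414 and 3011 CPM in pericytes and 1292, 878 and 1123 CPM in SMC (log2 fold change −1.78, adjusted p = 0.0458). Its partner chain *Col4a1* had 5502, 3092 and 2379 CPM and 1441, 1069 and 1629 CPM and was not called (log2 fold change −1.38, adjusted p = 0.151), although neither chain overlapped between the populations. *Lamc3*, a laminin γ chain, had 230.5, 585 and 241 CPM in pericytes and 11.2, 8.57 and 13.2 CPM in SMC (log2 fold change −4.97, SE 0.65, adjusted p = 0.00354). On the SMC side, *Npnt*, which encodes the integrin α8β1 ligand nephronectin, had 1.72, 55 and 2.21 CPM in pericytes and 2592, 1974 and 3022 CPM in SMC (log2 fold change 7.04, SE 1.36, adjusted p = 0.023), with pericytes 2 above the other pericyte libraries. *Lama1*, a laminin α chain, had 0, 0.631 and 0.369 CPM and 52.3, 13.4 and 40.8 CPM (adjusted p = 0.0403). *Lama2* (log2 fold change −0.55, adjusted p = 0.678), *Lamb1* (log2 fold change 0.34, adjusted p = 0.812) and *Nid1* (log2 fold change 0.48, adjusted p = 0.731), all abundant, overlapped. *Lamc3* kept the call in all 6 fits that left out 1 library. In fits without 1 library, the call was lost for *Col4a2* in 6 of 6 such fits (adjusted p up to 0.254, without SMC 2) and *Npnt* in 2 of 6 such fits (adjusted p up to 0.0862, without SMC 3). In the 6 fits without 1 library that kept the genes of the main test, calls ended for *Lama1* in 5 of 6 (adjusted p up to 0.181, without SMC 1). Single libraries moved the fold change by over 1.5 times for *Npnt* (log2 fold change 10.34 without pericytes 2).

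Interstitial and elastic matrix genes were called in SMC, 7 of 33, with a list median of 1.14 (DESeq2 11 in SMC and 1 in pericytes). *Mfap4*, a microfibril protein, had 6.65, 3.66 and 20.5 CPM in pericytes and 779, 587 and 633 CPM in SMC (log2 fold change 6.05, SE 0.77, adjusted p = 0.00292). The matricellular protein gene *Postn* had 294, 139.9 and 194 CPM and 1546, 1389.9 and 2558 CPM (log2 fold change 3.15, adjusted p = 0.00735), and *Col12a1*, a fibril-associated collagen, 314, 187 and 199.7 CPM and 1159.6, 1326 and 2175 CPM (log2 fold change 2.76, adjusted p = 0.0113). All SMC libraries were higher for these. The proteoglycans *Dcn* (157 ± 96.1 against 1524 ± 358 CPM, log2 fold change 3.31, adjusted p = 0.0113), *Lum* (5.1 ± 3.82 against 164 ± 35.9 CPM, log2 fold change 5.04, adjusted p = 0.00874) and *Vcan* (7.69 ± 7.83 against 269 ± 174 CPM, log2 fold change 5.15, adjusted p = 0.0168) were called, and so was the elastic fibre gene *Fbln5* (2.92 ± 2.51 against 65.9 ± 21.5 CPM, log2 fold change 4.52, adjusted p = 0.0429). The main fibrillar collagens were not: *Col3a1* had 2166, 1411 and 1235 CPM in pericytes and 3083, 2143 and 3055 CPM in SMC (log2 fold change 0.81, adjusted p = 0.411), and *Col1a1* 1684, 1518 and 1119 CPM and 2333, 1919 and 5482 CPM (log2 fold change 1.19, adjusted p = 0.279). Fibronectin, *Fn1*, overlapped (log2 fold change 0.33, adjusted p = 0.803). *Mfap4* and *Lum* kept their calls in all 6 fits that left out 1 library. Calls were lost without 1 library for *Postn* in 1 of 6 such fits (adjusted p up to 0.05005, without pericytes 3), *Col12a1* in 2 of 6 such fits (adjusted p up to 0.0679, without pericytes 3), *Dcn* in 1 of 6 such fits (adjusted p up to 0.0618, without pericytes 2), *Vcan* in 2 of 6 such fits (adjusted p up to 0.0898, without SMC 3) and *Fbln5* in 5 of 6 such fits (adjusted p up to 0.172, without SMC 3). The fold change moved by over 1.5 times for *Mfap4* (log2 fold change 7.04 without pericytes 3), *Lum* (log2 fold change 5.84 without pericytes 3), *Vcan* (log2 fold change 6.42 without pericytes 3) and *Fbln5* (log2 fold change 5.47 without pericytes 3).

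Of the matrix receptors, 3 of 20 were called, all higher in SMC (list median 1.71; DESeq2 7 in SMC and 3 in pericytes). *Itga9*, an integrin α subunit that binds tenascin C, had 33.9, 127 and 51.7 CPM in pericytes and 805, 629 and 1160.2 CPM in SMC (log2 fold change 3.65, adjusted p = 0.0113), *Itga11*, a collagen receptor subunit, 9.23, 3.28 and 2.83 CPM and 103, 212 and 379.9 CPM (log2 fold change 5.52, adjusted p = 0.00719). *Itgb8*, which takes part in the release of active TGF-β, had 0, 2 and 3 counts in pericytes and 38, 43.9 and 20.2 CPM in SMC (adjusted p = 0.0236). Every SMC library was above every pericyte library for the 3 genes. The nephronectin receptor subunit *Itga8* read 38.6, 17.9 and 48 CPM in pericytes and 102, 85 and 145 CPM in SMC and was not called (log2 fold change 1.70, adjusted p = 0.277), and *Itgb1*, the common β subunit, overlapped (667, 1118 and 716 CPM against 815, 1119 and 866 CPM, log2 fold change 0.20, adjusted p = 0.906). *Itga11* kept the call in all 6 fits that left out 1 library. With 1 library left out, the call was lost for *Itga9* in 1 of 6 such fits (adjusted p up to 0.0649, without pericytes 3). Keeping the genes of the main test and leaving out 1 library ended calls for *Itgb8* in 5 of 6 (adjusted p up to 0.132, without SMC 2). Leaving out single libraries moved the fold change by over 1.5 times for *Itga9* (log2 fold change 4.36 without pericytes 2) and *Itga11* (log2 fold change 6.26 without pericytes 1).

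Chemokine and cytokine genes were called in both directions, 3 in SMC and 2 in pericytes of 22 tested (list median 0.59; DESeq2 4 in SMC and 4 in pericytes). *Il33*, an alarmin cytokine, had 0, 2.78 and 0.861 CPM in pericytes and 419.9, 250.4 and 518 CPM in SMC (log2 fold change 8.31, SE 1.14, adjusted p = 0.00453), with all SMC libraries far higher. *Ccl11*, the eosinophil attractant eotaxin, was abundant in both, at 551, 880.5 and 516 CPM and 2198, 2754 and 3661 CPM (log2 fold change 2.17, adjusted p = 0.0225). *Cxcl12*, a ligand of CXCR4, had 11.8 ± 6.35 CPM in pericytes and 161 ± 65.6 CPM in SMC (log2 fold change 3.81, adjusted p = 0.0234). Pericytes had more of *Il34*, a ligand of the CSF1 receptor (192, 363 and 55.8 CPM against 4.43, 4.82 and 0.33 CPM, log2 fold change −5.94, adjusted p = 0.0239), and of the neutrophil attractant *Cxcl1* (77, 277 and 107 CPM against 3.9, 4.53 and 0.11 CPM, log2 fold change −5.70, adjusted p = 0.039). *Csf1*, the other ligand of that receptor, read 36.5, 104 and 139 CPM in pericytes and 295, 231 and 351 CPM in SMC without a call (log2 fold change 1.69, adjusted p = 0.206). *Il33* kept the call in all 6 fits that left out 1 library. The call was lost with 1 library left out for *Ccl11* in 5 of 6 such fits (adjusted p up to 0.101, without pericytes 3), *Cxcl12* in 3 of 6 such fits (adjusted p up to 0.157, without SMC 2), *Il34* in 4 of 6 such fits (adjusted p up to 0.0821, without SMC 1) and *Cxcl1* in 4 of 6 such fits (adjusted p up to 0.126, without SMC 1). A fold change that moved by over 1.5 times was seen for *Il33* (log2 fold change 9.65 without pericytes 2), *Il34* (log2 fold change −5.24 without pericytes 2) and *Cxcl1* (log2 fold change −4.97 without pericytes 2).

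Fibroblast markers stood beside these SMC genes. Of 16, 15 were tested and 5 were called higher in SMC (*Adamdec1*, *Sfrp1*, *Lum*, *Dpt* and *Dcn*, of which *Lum* and *Dcn* are also on the matrix list and *Sfrp1* on the Wnt list), with a list median of 2.08 (DESeq2 5 in SMC and 0 in pericytes). The summed level was 2702, 2111 and 1817 CPM in pericytes 1, 2 and 3 and 15795, 16159 and 24553 CPM in SMC 1, 2 and 3. In comparison it was 64873 ± 13315 CPM in SI CD34+ FB, 36644 ± 5986 CPM in SI Fgfr2+ FB and 21155 ± 165 CPM in SI PDGFRα hi FB. The most abundant of them in SMC was *Adamdec1*, a metalloprotease gene of gut FB, at 102, 47.5 and 107 CPM in pericytes and 9585, 9732 and 12005 CPM in SMC (log2 fold change 6.96, SE 0.52, adjusted p = 0.000335). The gene stood at 19235 ± 3280 CPM in SI Fgfr2+ FB, 5565 ± 567 CPM in SI CD34+ FB and 4863 ± 365 CPM in SI PDGFRα hi FB. *Dpt* had 7.13 ± 3.36 CPM in pericytes and 90.2 ± 22.7 CPM in SMC (log2 fold change 3.69, adjusted p = 0.0366). The defining marker *Pdgfra* was at most 40.7 CPM in SMC, against 824 ± 67.1 CPM in SI CD34+ FB, and *Pi16* had 5, 5 and 3 counts in SMC. *Fgfr2*, the gene that names SI Fgfr2+ FB, was on the other hand called higher in SMC. Added after its values were seen, it had 4.51, 1.26 and 1.11 CPM in pericytes and 450, 339 and 205 CPM in SMC (log2 fold change 7.24, adjusted p = 0.00227). It kept the call in all 6 fits without 1 library (log2 fold change 8.13 without pericytes 1). It stood at 1647 ± 290.1 CPM in SI Fgfr2+ FB. Other genes on these lists were also high in FB, such as *Dcn* with 11830.4 ± 1948 CPM, *Mfap4* with 3401 ± 609 CPM and *Cxcl12* with 458 ± 42.5 CPM in SI CD34+ FB. The part of FB transcripts in the matrix, Wnt, BMP and chemokine results was not tested. *Adamdec1* kept the call in all 6 fits that left out 1 library. Leaving out 1 library ended the call for *Dpt* in 5 of 6 such fits (adjusted p up to 0.164, without SMC 2).

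By contrast, several genes called in SMC were far lower in FB than in SMC. *Npnt* stood at 13.9 ± 4.63 CPM in SI CD34+ FB, 24.8 ± 1.95 CPM in SI Fgfr2+ FB and 10.7 ± 6.41 CPM in SI PDGFRα hi FB, against 2529 ± 527 CPM in SMC. *Kcnma1* stood at 13.7 ± 2.61, 5.45 ± 0.488 and 3.18 ± 1.73 CPM in the same FB, against 354 ± 26.8 CPM in SMC, and *Pdgfc* at 8.36 ± 4.11, 0.429 ± 0.53 and 0.424 ± 0.169 CPM, against 149.6 ± 57.9 CPM. Together with *Hhip* these genes, chosen after their values were seen, had their highest mean in SMC among the 5 SI populations measured. *Wnt2b* did not, with 594 ± 80 CPM in SI CD34+ FB and 519 ± 126 CPM in SMC.

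**Figure D2:**
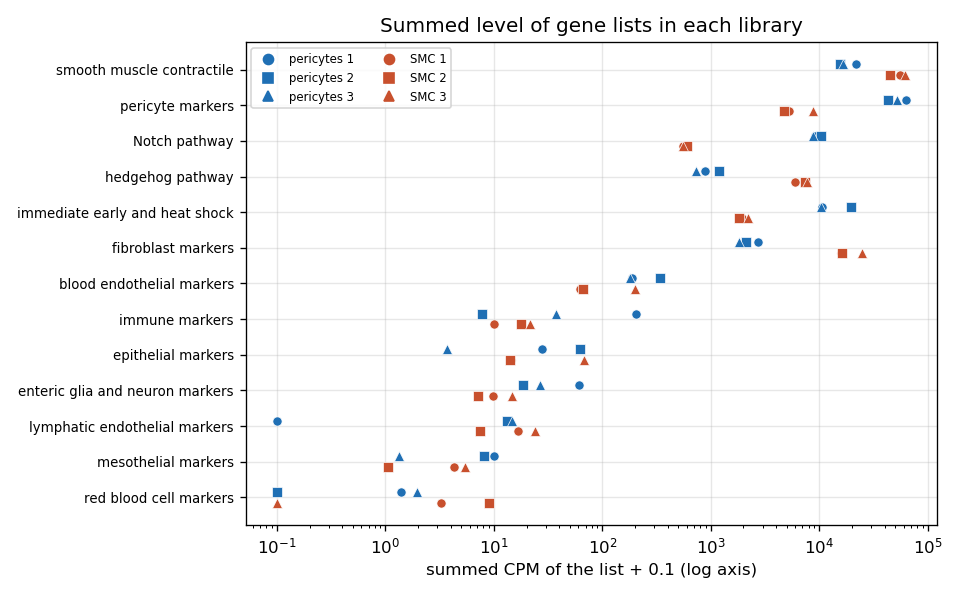
Summed level of 13 gene lists in each library (CPM + 0.1, log axis), pericytes in blue and SMC in orange, with 1 symbol shape per replicate. The contractile and fibroblast lists were higher in each SMC library, the pericyte, Notch and immediate early lists in each pericyte library, and the blood endothelial, immune and epithelial lists overlapped.

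Immediate early genes are those that cells switch on within minutes of a stimulus. Of 27 immediate early and heat shock genes tested, 8 were called, all higher in pericytes, and 19 were not called. The list median was −2.34 (DESeq2 0 in SMC and 15 in pericytes). The summed level was 10545, 19577 and 10318 CPM in pericytes 1, 2 and 3 and 1921, 1833 and 2219 CPM in SMC 1, 2 and 3, without overlap. *Fos*, a component of the AP-1 transcription factor, had 682, 839 and 274 CPM in pericytes and 17.2, 17 and 28.9 CPM in SMC (log2 fold change −4.80, SE 0.62, adjusted p = 0.0033), and its relative *Fosb* 534, 3224 and 1109 CPM and 29.8, 47.5 and 20.3 CPM (log2 fold change −5.60, adjusted p = 0.0047). The transcription factor *Egr1* had 1825, 6438 and 3192 CPM and 225, 291 and 182 CPM (log2 fold change −4.00, adjusted p = 0.0047), with pericytes 2 the highest for *Fosb* and *Egr1*. *Jun* (log2 fold change −2.93, adjusted p = 0.0233), *Atf3* (log2 fold change −7.26, adjusted p = 0.00684), *Ier2* (log2 fold change −4.74, adjusted p = 0.0395), *Gadd45b* (log2 fold change −7.94, adjusted p = 0.00453) and the RNA decay factor *Zfp36* (log2 fold change −2.41, adjusted p = 0.0454) were called as well. The chaperone gene *Hsph1* overlapped (log2 fold change −1.22, adjusted p = 0.532). *Fos*, *Fosb*, *Egr1*, *Atf3* and *Gadd45b* kept their calls in all 6 fits that left out 1 library. In fits without 1 library, the call was lost for *Jun* in 4 of 6 such fits (adjusted p up to 0.0849, without SMC 2), *Ier2* in 5 of 6 such fits (adjusted p up to 0.189, without SMC 2) and *Zfp36* in 5 of 6 such fits (adjusted p up to 0.194, without SMC 1). Single libraries moved the fold change by over 1.5 times for *Fosb* (log2 fold change −4.62 without pericytes 2), *Egr1* (log2 fold change −3.40 without pericytes 2), *Atf3* (log2 fold change −8.05 without SMC 1) and *Gadd45b* (log2 fold change −7.09 without pericytes 1).

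Genes called with the largest fold changes lay largely outside the lists. Toward pericytes, *Col28a1*, a beaded filament collagen (96.4, 63.3 and 22.9 CPM, adjusted p = 0.00795), *Crhr2*, the receptor of urocortins (38.4, 63.6 and 80.2 CPM, adjusted p = 0.00586), and *Pmfbp1* (44.4, 44.2 and 22 CPM, adjusted p = 0.012) had no count in any SMC library. *Olfr558*, an olfactory receptor gene, had 406, 123 and 173 CPM in pericytes and 2, 0 and 2 counts in SMC (adjusted p = 0.00144), and the pseudokinase *Trib2* had 181, 53.9 and 70 CPM and 1, 0 and 0 counts (adjusted p = 0.00292). Toward SMC, *Phf24* (60, 49.6 and 25.3 CPM, adjusted p = 0.0106) and *Slc22a21*, a carnitine transporter (43.5, 28.1 and 19.7 CPM, adjusted p = 0.0183), had no count in any pericyte library. *Rap1gap2*, which switches off the small GTPase RAP1, had 1, 0 and 0 counts in pericytes and 82.4, 69 and 300.4 CPM in SMC (adjusted p = 0.00292), *Ccdc88c* 1, 1 and 0 counts and 213, 189 and 91.5 CPM (adjusted p = 0.00134), and *St8sia2*, which builds polysialic acid on NCAM, 0, 1 and 2 counts and 54.9, 51 and 323 CPM (adjusted p = 0.00434). The neuronal pentraxin *Nptx2*, the popeye domain gene *Bves*, the transporter *Abcg4*, *Sprn*, *Tmeff1* and *Gm17800* also had no count in any pericyte library, with SMC means from 14.3 CPM (*Sprn*) to 21 CPM (*Nptx2*). *Psme2b*, called toward pericytes, and *Gpc2*, called toward SMC, also had no count in the other population, but at least 50% of their 31-base words occur in other genes, so their levels are uncertain. Without each library in turn, and with the genes of the main test kept, *Col28a1*, *Crhr2*, *Olfr558*, *Trib2*, *Rap1gap2*, *Ccdc88c* and *St8sia2* stayed called. With the genes of the main test kept and 1 library left out, calls were lost for *Pmfbp1* in 1 of 6 (adjusted p up to 0.0527, without SMC 2), *Phf24* in 2 of 6 (adjusted p up to 0.0574, without SMC 1) and *Slc22a21* in 3 of 6 (adjusted p up to 0.0907, without SMC 1). In the 6 fits without 1 library that kept the genes of the main test, calls ended for *Nptx2* in 5 of 6 (adjusted p up to 0.143, without SMC 2), *Bves* in 5 of 6 (adjusted p up to 0.136, without SMC 1), *Abcg4* in 5 of 6 (adjusted p up to 0.13, without SMC 2) and *Sprn* in 5 of 6 (adjusted p up to 0.153, without SMC 2). Keeping the genes of the main test and leaving out 1 library ended calls for *Tmeff1* in 5 of 6 (adjusted p up to 0.125, without SMC 1), *Gm17800* in 5 of 6 (adjusted p up to 0.128, without SMC 2), *Psme2b* in 4 of 6 (adjusted p up to 0.0711, without SMC 3) and *Gpc2* in 5 of 6 (adjusted p up to 0.139, without SMC 2).

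The abundant genes called in pericytes included *Epas1*, the hypoxia-inducible transcription factor HIF-2α, at 4171, 4466 and 4284 CPM in pericytes and 407, 413 and 1484 CPM in SMC (log2 fold change −2.47, adjusted p = 0.0455), with SMC 3 above SMC 1 and 2. *Timp3*, an inhibitor of matrix metalloproteases, had 3261, 3251 and 4917 CPM and 764, 594 and 1029 CPM (log2 fold change −2.23, adjusted p = 0.0171), the transcription factor *Zfhx3* 3247, 3713 and 2391 CPM and 474, 656 and 471 CPM (log2 fold change −2.52, adjusted p = 0.00869), and *Il6st*, the gp130 receptor subunit of the interleukin 6 family, 2528, 3033 and 1930.4 CPM and 469, 549 and 465 CPM (log2 fold change −2.31, adjusted p = 0.0119). None of the 4 overlapped between the populations. Among abundant SMC genes, the LIM protein *Lpp* had 1211, 1099 and 1132 CPM in pericytes and 4615, 4399.9 and 11014 CPM in SMC (log2 fold change 2.56, adjusted p = 0.0148), and *Map1b*, a microtubule-associated protein, 448, 190 and 372 CPM and 2223, 2593 and 4865 CPM (log2 fold change 3.28, adjusted p = 0.00789). SMC 3 was the highest library for both. *Akap2* met the same rule in pericytes, with an uncertain level for the reason given for *Psme2b*. Calls were lost without 1 library for *Epas1* in 5 of 6 such fits (adjusted p up to 0.189, without SMC 2), *Timp3* in 3 of 6 such fits (adjusted p up to 0.117, without SMC 2), *Zfhx3* in 1 of 6 such fits (adjusted p up to 0.0703, without SMC 1), *Il6st* in 3 of 6 such fits (adjusted p up to 0.0906, without SMC 1), *Lpp* in 2 of 6 such fits (adjusted p up to 0.0857, without pericytes 3), *Map1b* in 1 of 6 such fits (adjusted p up to 0.05005, without pericytes 3) and *Akap2* in 5 of 6 such fits (adjusted p up to 0.181, without SMC 2). The fold change moved by over 1.5 times for *Epas1* (log2 fold change −3.35 without SMC 3).

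**Figure D3:**
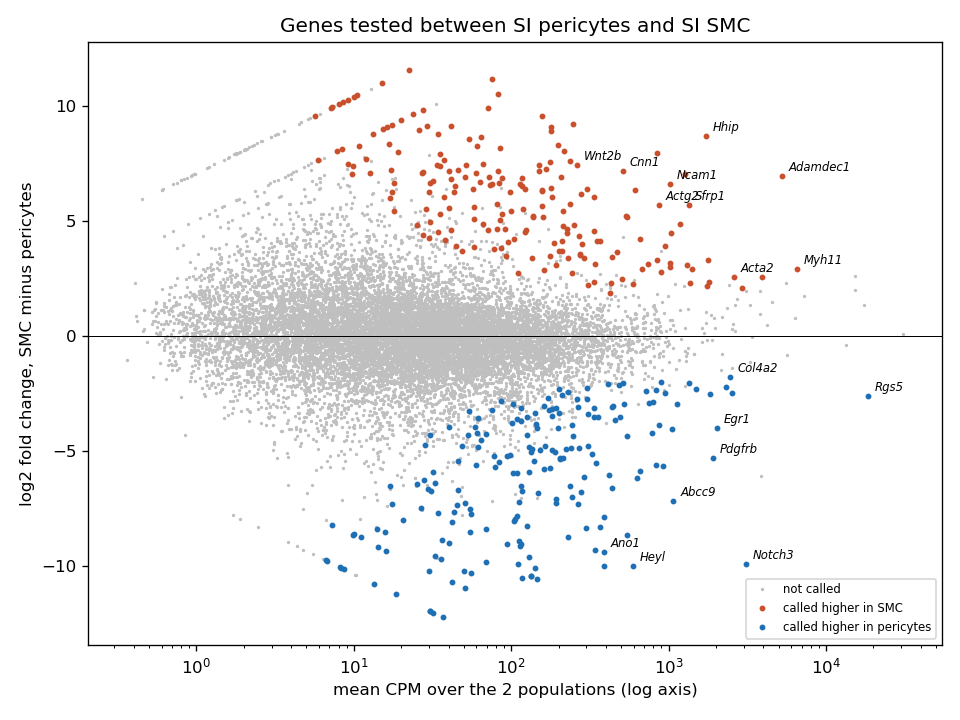
Log2 fold change (SMC minus pericytes) of the 13767 genes tested against the mean level over both populations (CPM, log axis). Called genes are coloured, 196 higher in SMC in orange and 194 higher in pericytes in blue. *Notch3* and *Hhip* combined high levels with large fold changes, and *Rgs5*, at the highest level of the called genes, had a log2 fold change of −2.63.

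Subunits of the respiratory chain with isoforms specific to tissues gave 2 calls of 9, both in pericytes (DESeq2 1 in SMC and 3 in pericytes). *Ndufa4l2*, a hypoxia-responsive relative of *Ndufa4*, had 14.8, 223 and 94.7 CPM in pericytes and 2, 0 and 0 counts in SMC (adjusted p = 0.00872), and *Cox4i2*, the alternative form of *Cox4i1*, 101, 42.3 and 108 CPM and 8, 0 and 0 counts (adjusted p = 0.0271). The common forms were not called: *Ndufa4* read 0, 17 and 0 counts in pericytes and 29.1, 30.9 and 24.9 CPM in SMC (adjusted p = 0.184), and *Cox4i1* 2.15, 23 and 46.2 CPM and 61.1, 53.9 and 8.03 CPM (log2 fold change 0.84, adjusted p = 0.828). Among 10 cell cycle genes (DESeq2 0 in SMC and 2 in pericytes), *Mki67* was called, at 35.2, 32.6 and 32.7 CPM in pericytes and 0.528, 0.385 and 0.11 CPM in SMC (adjusted p = 0.0223), while *Top2a* overlapped (log2 fold change −2.24, adjusted p = 0.458). *Rrm2* was seen at 0, 2.79 and 208 CPM in SMC 1, 2 and 3, with SMC 3 far above the rest. With 1 library left out, the call was lost for *Cox4i2* in 3 of 6 such fits (adjusted p up to 0.0912, without SMC 3). With the genes of the main test kept and 1 library left out, calls were lost for *Ndufa4l2* in 1 of 6 (adjusted p up to 0.0505, without SMC 3) and *Mki67* in 4 of 6 (adjusted p up to 0.14, without SMC 2).

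None of 31 interferon response genes was called by edgeR, where 9 had an unadjusted p below 0.05, and DESeq2 called 4, all higher in pericytes. For comparison, DESeq2 called 1251 of all 13767 genes tested. The list median was −1.02, and the summed level ran from 4687 to 10787 CPM in pericytes and from 2844 to 5165 CPM in SMC. *B2m*, the light chain of class I molecules, overlapped (log2 fold change −0.17, adjusted p = 0.927).

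Markers of further cell types were summed. Those of blood endothelium came to 189, 344 and 180.4 CPM in pericytes 1, 2 and 3 and 62.8, 66.1 and 201 CPM in SMC 1, 2 and 3, with 7 of 14 tested. EdgeR called none of them (3 at an unadjusted p below 0.05) and DESeq2 3, all higher in pericytes. *Pecam1* was the most abundant, with *Cldn5*, *Erg* and *Sox17* at 0 counts in all 6 libraries. The part of endothelial transcripts in the *Tek* and *Dll4* results was not tested. Immune markers (3 of 16 tested, none called by edgeR or DESeq2, 1 at an unadjusted p below 0.05) summed to 206, 7.7 and 37.6 CPM and 10, 17.5 and 21.6 CPM, where the B cell gene *Cd79a* made up 199.8 CPM of pericytes 1, *Ptprc* was the most abundant in SMC, and *Cd52*, *Tyrobp*, *Trbc2* and *Nkg7* had no count. Epithelial markers (3 of 19 tested, none called by edgeR, 1 at an unadjusted p below 0.05 and 1 called by DESeq2, higher in SMC) summed to 27.7, 62.2 and 3.57 CPM and 14.4, 14.1 and 67.8 CPM, led by *Lgals4* in pericytes and *Muc2* in SMC, with *Epcam* and *Krt8* at 0. Glial and neuronal markers (2 of 12 tested; DESeq2 0 in SMC and 1 in pericytes) summed to 61.4, 18.4 and 26.8 CPM and 9.81, 7.03 and 14.7 CPM. Their 1 called gene, *Fabp7*, a fatty acid binding protein, had 33.3, 6.82 and 9.72 CPM in pericytes and no count in SMC (adjusted p = 0.0429), while the glial regulator *Sox10* had no count in pericytes and 1 in SMC 2. Markers of lymphatic endothelium (2 of 6 tested), mesothelium (1 of 7) and red blood cells (1 of 6) had no gene with an unadjusted p below 0.05 in edgeR and no call by edgeR or DESeq2. Interstitial cell of Cajal markers (4 of 6 tested; DESeq2 1 in SMC and 1 in pericytes) summed to 1159, 595 and 748 CPM in pericytes and 25.9, 37 and 37.7 CPM in SMC. *Ano1*, the 1 gene of them that edgeR called, led in pericytes and *Etv1* in SMC. In the 6 fits without 1 library that kept the genes of the main test, calls ended for *Fabp7* in 6 of 6 (adjusted p up to 0.16, without SMC 2).

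Colonic pericytes, sorted through the same PDPN- gate and not used in the test, gave these levels as a description. *Rgs5* stood at 33481 ± 8481 CPM there, *Notch3* at 3414 ± 812 CPM, *Pdgfrb* at 1975 ± 670.3 CPM and *Ano1* at 723 ± 132 CPM. These levels were nearer to SI pericytes than to SI SMC. *Myh11* stood at 6990.3 ± 156 CPM, *Actg2* at 160.5 ± 48.1 CPM, *Cnn1* at 65.4 ± 40 CPM and *Hhip* at 9.94 ± 6.9 CPM. Of these, *Myh11* lay between SI pericytes (mean 1584 CPM) and SI SMC (mean 11499 CPM) and was nearer to SI SMC. The others were nearer to SI pericytes. *Adamdec1* had 23.4 ± 11.7 CPM and *Fos* 719 ± 122 CPM.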

How the data were processed

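The authors sorted pericytes, SMC and FB subsets from mouse small intestine and colon, amplified the transcriptome and made libraries with the Ovation Ultralow kit. Per the submitters' notes, reads were trimmed with Trim Galore 0.4.0, checked with FastQC 0.11.2 and quantified with kallisto 0.42.5. The deposited values are the estimated count and the TPM of 98492 transcripts in each of 30 libraries. Of these transcripts, 97116 matched GENCODE M21. For each of 32342 genes the estimated counts of its transcripts were added up, and these expected counts were rounded to integers. Gene identifiers and positions follow that annotation (GRCm38).

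SI pericytes and SI SMC (n = 3 libraries each) were compared with edgeR 4.0.16 (quasi-likelihood F test, TMM factors) in R 4.3.3. The test took genes that had 6 or more counts in 3 or more of the 6 libraries. Calls needed an adjusted p (Benjamini-Hochberg, over all genes tested) under 0.05 and a log2 fold change beyond 1.5 in either direction. The common biological coefficient of variation was 0.963. Standard errors are the absolute log2 fold change over the square root of F. Every adjusted p in the text comes from this fit, or from the same fit without the library named, where the filter was repeated unless the text says that the genes of the main test were kept. The procedure was tested on simulated data. CPM used TMM factors over all 30 libraries, and TPM were recomputed over matched genes.

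Named genes were the markers and sorting markers, the called members of the gene lists with abundant uncalled ones where a sentence needed them, the 12 called genes with the largest absolute log2 fold change in each direction, and the 10 called genes with the highest mean level in each direction. The last 2 sets took genes whose populations did not overlap, the first of them with a mean of at least 10 CPM. Genes about which nothing sure could be said were left out in places. Members and lists were chosen with earlier results of these data known. Shared sequence was counted as words of 31 bases within the annotated transcripts. Alternatives were DESeq2 1.42.0, RLE and upper-quartile factors, no filter, a filter of 10 counts, length-scaled TPM, single transcripts, a replicate block, a model of all 30 libraries, other fold thresholds and leaving out libraries. Figures were drawn with matplotlib 3.10.9.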

Additional observations from a re-analysis of the deposited data

How the results depend on the processing

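The count of called genes was 390 (196 higher in SMC, 194 in pericytes). It was within 1.5 times that with RLE factors (392), upper-quartile factors (398), length-scaled TPM (288) and, as alternatives chosen after seeing the data, without pericytes 1 and SMC 3 together (356) and without mitochondrial genes (403). A fold threshold of 1 or none gave the same 390. Every gene with an adjusted p below 0.05 also passed the threshold of 1.5, so these 2 settings could not change the count. DESeq2 called 1251 (598 higher in SMC, 653 in pericytes), among them 389 of the 390. The model of all 30 libraries called 1726 (932 and 794), 389 of the 390 included. Without a filter 636 genes were called (283 and 353), and with the filter of 10 counts 640 (329 and 311), with all 390 kept in both. Single transcripts gave 47 genes (22 and 25), all among the 390. The cause of these differences was not tested. With 1 library left out, the counts ran from 183 to 362 genes, 87 to 200 of them higher in SMC and 90 to 162 in pericytes, and 118 of the 390 were called in all 6 of these fits, which have fewer samples and drop genes seen in 1 population only. With the genes of the main test kept, chosen after seeing the data, 420, 289 and 282 genes were called without pericytes 1, 2 and 3. Without SMC 1, 2 and 3 these were 195 (100 higher in SMC, 95 in pericytes), 178 (96 and 82) and 246 (112 and 134). All 6 of these fits called 147 of the 390.

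With the replicate number as a block, 358 genes were called (176 higher in SMC, 182 in pericytes), 309 of the 390 among them, and the median log2 fold change of all genes moved from 0.01 to 0.27. The replicate numbers do not pair the libraries, as far as correlations of −0.05, 0.04 and −0.05 between equal numbers show. Upper-quartile factors moved that median to 0.14.

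No called gene took the opposite sign under any alternative where it was tested. Of the 118 called genes in the lists and named sets, 35 were called in all 6 fits that left out 1 library, and 23 in every other alternative that tested them. For *Esam*, which was not called, the estimate turned negative with length-scaled TPM (−0.98), without pericytes 1 and SMC 3 together (−0.53) and without pericytes 1 with the main genes kept (−0.33), and with 1 library left out it ran from −0.34 to 0.95. The cause was not tested. With 3 libraries a population and a coefficient of variation near 1, small differences could not be called, and a gene with under 6 counts in 4 of the 6 libraries was not tested.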
